A study of Drosophila melanogaster with 144 samples.

Results

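The 6 protein-coding genes whe, CG16826, CG34212, CG33109, CG45080 and Ag5r were examined among the 17381 genes counted in RNA of adult Drosophila melanogaster heads. They were selected on measured values of these libraries, a very wide spread of counts between libraries and higher late-night levels in Canton-S B. The spread and the Canton-S B time pattern are therefore given here as a description, with no test, and the choice set no numerical limit. Differences between lines and sexes add to the spread over all libraries, so the line, sex and interaction tests below are not independent of the choice either and are no separate support for it. All 6 passed the filter on low counts and were among the 10894 genes tested. The libraries came from DGRP_892, a long-period stock of the Drosophila Genetic Reference Panel (DGRP), and from Canton-S B, whose period is 24 h and whose cultures are labelled w1118. Both groups were virgin males and virgin females, entrained to 12 h of light per day over 3 days and then held in the dark over 3 further days until they were frozen. Circadian time (CT) counts hours of the subjective day, so that night runs from CT14 to CT24 among the times sampled. Each of the 48 groups of line, sex and time held 3 libraries, 1 from each of 3 runs of the collection, and each library pooled 150 heads. DGRP_892 stands for 1 genotype of the panel, so a line difference is a difference between these 2 stocks.

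Ag5r encodes an antigen 5-related protein of the CAP family, cysteine-rich secreted proteins that are also known from insect venoms and saliva. The other 5 genes are known mainly by their annotation, and no role is assigned to them here. A fly head holds brain, compound eyes, fat body, muscle, glands and cuticle, and all of them contribute RNA to a library. In pooled heads, fewer cells of a type and less RNA per cell cannot be told apart.

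Depth lay between 11.66 and 37.3 (in units of 1e6 gene counts per library), with 48 deeper libraries above 20 and 96 shallower ones. Levels are counts per 1e6 gene counts (CPM), and 1 count was worth 0.0268 CPM in the deepest library and 0.0857 CPM in the shallowest. The eye pigment transporter gene w had its lowest value at 18.8 CPM in DGRP_892 and its highest at 0.788 CPM in Canton-S B, and lncRNA:roX1, a male dosage compensation RNA, was at least 1357 CPM in every male library and at most 91.2 CPM in every female one.

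The 6 genes lie at 6 separate places in the genome (FlyBase release 6 assembly). whe (FBgn0031176) spans X:21402339-21402772 on the minus strand. CG16826 (FBgn0032505) spans 2L:13347773-13349020 on the plus strand. CG34212 (FBgn0085241) spans 2R:6049874-6050286 on the minus strand. CG33109 (FBgn0053109) spans 3R:14220560-14221584 on the minus strand. CG45080 (FBgn0266455) spans 3R:13318991-13319270 on the minus strand. Ag5r (FBgn0015010) spans X:14784664-14786551 on the minus strand, 612 bases from its relative Ag5r2, and 140 of its bases overlap lncRNA:CR45522 on the plus strand. Whether reads were counted by strand is not known from the labels, so reads of that overlap cannot be assigned. Exon length was short throughout, from 280 bases in CG45080 to 1760 in Ag5r.

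The genes were close to absent in most libraries and abundant in a minority. CG16826 ranged from 0 to 96.6 CPM in DGRP_892 males, with a median of 0.279, and from 0 to 51.6 CPM in DGRP_892 females, with a median of 0.151. In Canton-S B males it ranged from 0 to 171.7 CPM with a median of 0.389, and in Canton-S B females from 0.0885 to 806.9 CPM with a median of 139.8. Only the Canton-S B females had a median above 1 CPM for this gene, yet their lowest libraries lay within the range of all other groups.

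whe ranged from 0 to 20.2 CPM in DGRP_892 males, with a median of 0.0906, and from 0 to 24.5 CPM in DGRP_892 females, where 19 of 36 libraries had no count. It ranged from 0 to 111.02 CPM in Canton-S B males, with a median of 0.0683, and from 0 to 313.5 CPM in Canton-S B females, with a median of 25.8. CG45080 had no count in 38 of 72 DGRP_892 libraries and 20 of 72 Canton-S B libraries, and its highest levels were 4.92 CPM in DGRP_892 and 137.3 CPM in Canton-S B. The groups thus overlapped at the bottom and differed in how many libraries were high.

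CG34212 reached 11.5 CPM in DGRP_892 males, 6.48 in DGRP_892 females, 16.03 in Canton-S B males and 60.2 in Canton-S B females, with medians of 0.12, 0.0712, 0.217 and 8.50 CPM in these groups. CG33109 stayed at or below 3.18 CPM in all 72 DGRP_892 libraries, against a highest level of 88.99 CPM in Canton-S B. Ag5r behaved differently at the low end. It had counts in every library, with medians of 0.837 CPM in DGRP_892 males, 0.829 in DGRP_892 females, 1.20 in Canton-S B males and 13.2 in Canton-S B females, so that high libraries stood above a floor of about 1 CPM instead of 0. Per length, mean levels in Canton-S B females were 149.2 CPM per kb of exon for CG16826, 132.9 for whe, 116.4 for CG45080, 35.6 for CG34212, 18.3 for CG33109 and 13.1 for Ag5r. Within single libraries this order did not hold throughout. CG16826 lay above whe in 24 of the 36 Canton-S B female libraries and whe above CG45080 in 13, while CG45080 lay above CG34212 in 28, CG34212 above CG33109 in 32 and CG33109 above Ag5r in 23. The SD over the 36 libraries exceeded the mean for every gene.

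**Figure D1:**
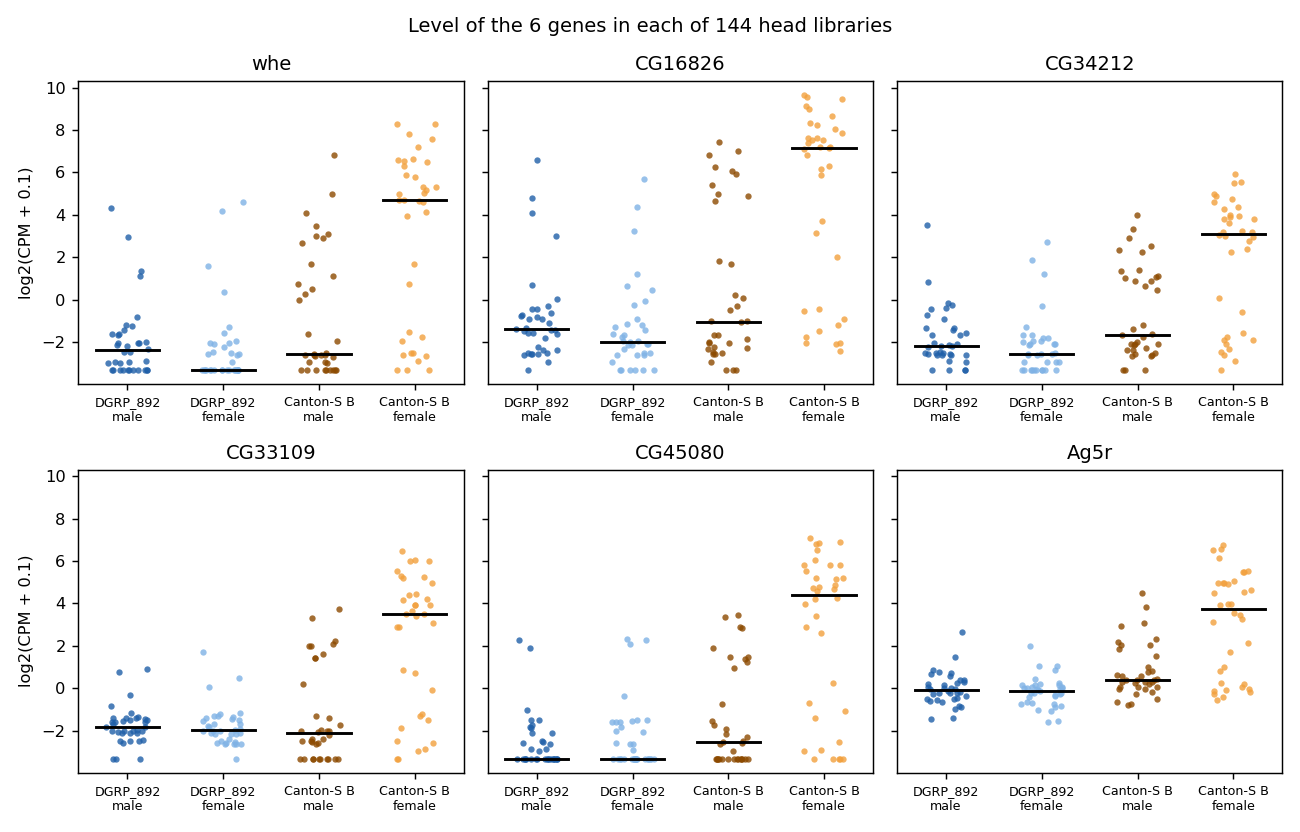
Level of each gene as log2(CPM + 0.1) in the 36 libraries of each line and sex (points, with the median as a bar). Canton-S B females fall into a high cloud and a low cloud, with medians of 139.8 CPM for CG16826 and 25.8 CPM for whe, while most other libraries lie at the bottom of the scale.

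When the 144 libraries were ordered by the mean log2 level of the 6 genes, the widest gap in the order left 38 libraries above it and the rest below. The gap ran from 1.04 to 1.72, while the mean log2 level ran from -2.72 to 7.22 over all libraries. The part above the gap held 2 of 36 DGRP_892 male, 2 of 36 DGRP_892 female, 10 of 36 Canton-S B male and 24 of 36 Canton-S B female libraries. These 38 libraries held 99.1% of the summed CPM of whe, 98.8% of that of CG16826 and 90.2% of that of Ag5r. All 6 genes were at 1 CPM or more in every library above the gap and together in none below it. The gap was set by these values themselves and serves only to say which libraries carry the genes. Any order has a widest gap, so it does not show 2 separate kinds of library.

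The same libraries led for every gene. Of the 10 highest libraries of each gene, 7 were shared by all 6 genes, and 13 libraries in all entered any of these lists, 12 of them Canton-S B female. The highest was the Canton-S B female library of CT22 in collection 3, with 806.9 CPM of CG16826, 313.5 of whe, 137.3 of CG45080, 106.9 of Ag5r, 63.4 of CG33109 and 60.2 of CG34212. The next were Canton-S B female libraries of CT20 in collection 3, CT18 in collection 1, CT16 in collection 3 and CT14 in collection 1, with 751.2, 706.8, 561.6 and 507.7 CPM of CG16826. Replicates of these groups could lie at the floor. At CT16, Canton-S B females had 0.0885, 71.6 and 561.6 CPM of CG16826 in collections 1, 2 and 3, and at CT14 they had 507.7, 0.635 and 193.8 CPM.

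The 4 DGRP_892 libraries above the gap were the male libraries of CT22 in collections 1 and 2 and the female libraries of CT16 in collection 3 and CT24 in collection 1. They had 27.3, 96.6, 20.8 and 51.6 CPM of CG16826, and 7.64, 20.2, 18.2 and 24.5 CPM of whe. The CT22 male library of collection 3 had 0.286 CPM of CG16826 and no count of whe.

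**Figure D2:**
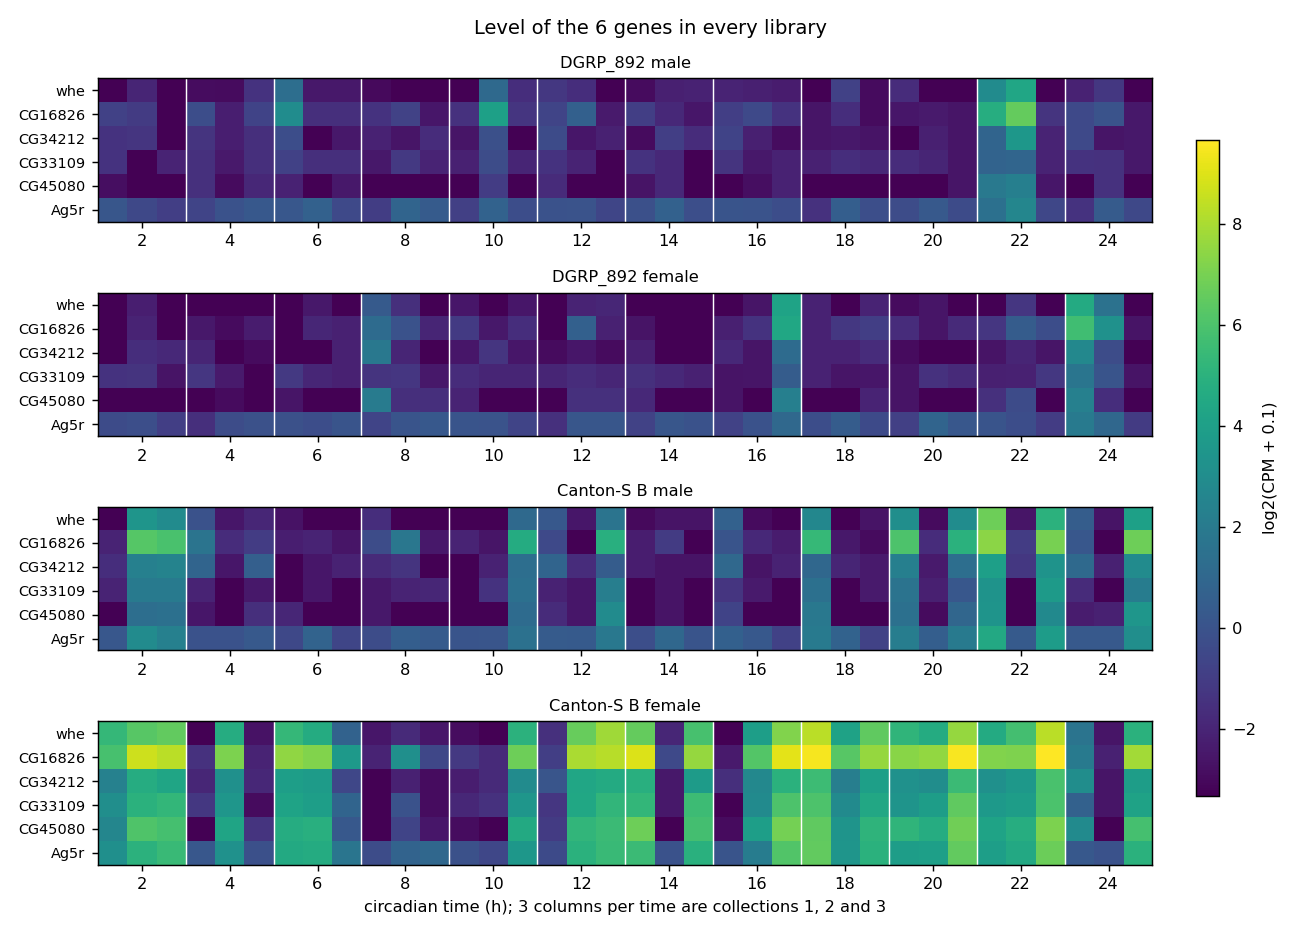
Level of the 6 genes in every library as log2(CPM + 0.1), 1 column per library, ordered by circadian time and by collection within each time. Bright columns run through all 6 rows at once, in 4 DGRP_892, 10 Canton-S B male and 24 Canton-S B female libraries, beside columns of the same time that are dark.

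The line comparison asked whether heads of DGRP_892 and Canton-S B differ in these transcripts. Levels were lower in DGRP_892. CG16826 averaged 3.49 ± 13.4 CPM in DGRP_892 and 103.6 ± 182.1 CPM in Canton-S B, whe 1.17 ± 4.32 and 31.8 ± 65.4, and Ag5r 0.995 ± 0.839 and 12.998 ± 22.6 (SD, n = 72 each). In edgeR's quasi-likelihood test on the 48 group means, with Benjamini-Hochberg adjustment over all 10894 genes, 2 of the 6 genes passed an adjusted p of 0.05, beside 67.1% of all genes tested in either direction and 34.4% lower in DGRP_892. Ag5r fell by 2.47 ± 0.25 on the log2 scale (SE, adjusted p = 3.02e-15) and CG34212 fell by 3.57 ± 0.96 (SE, adjusted p = 0.000697). The call of CG34212 was lost without replicate 2 (adjusted p = 0.143) and without replicate 3 (adjusted p = 0.130), while that of Ag5r held with each replicate left out. Without replicate 3 the DGRP_892 females of CT06 held no count of CG34212, so that contrast of group means was undetermined. The other 4 had log2 fold changes of -3.18 for CG33109, -4.98 for whe, -4.99 for CG45080 and -5.34 for CG16826, with adjusted p from 0.0747 to 0.401 in the same edgeR test.

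That test averages the logarithms of 48 group means, and a group without counts has no finite logarithm. All 3 libraries were at 0 in 2 of the 24 DGRP_892 groups for whe and in 3 for CG45080, and the standard errors of these contrasts reached 5.12 for the line effect and far more for sex, so that for whe and CG45080 the test was void. CG16826 and CG33109 had counts in every group and still missed the threshold, with standard errors of 2.93 and 1.62. limma-trend on log2 CPM with a prior count of 2, planned as an alternative on the same 48 groups, put 6 of 6 genes past 0.05 and lower in DGRP_892, beside 34.4% of all genes. Its log2 fold changes ran from -1.94 for Ag5r to -3.66 for CG16826, with adjusted p of at most 1.59e-09. An edgeR fit with line and sex means and additive times, added after seeing the data, likewise gave 6 of 6, from -2.65 for Ag5r to -4.53 for CG16826, beside 34.4% of all genes, and DESeq2 gave 6 of 6 beside 35.3%. DESeq2 fitted the same 48 groups, so its values for whe and CG45080 also rest on the groups without counts. edgeR with 24-h cosine curves in place of the 48 means gave 6 of 6 within the deeper libraries, beside 24.3% of all genes, and 6 of 6 within the shallower ones, beside 31.4%. In matched pairs of 1 sex, time and collection, CG34212 was lower in the DGRP_892 library in 57 of 72 pairs, Ag5r in 56, CG16826 in 52, whe and CG45080 in 46 and CG33109 in 42. Among the pairs of males, CG33109 was lower in the DGRP_892 library in 13 of 36 and higher in 22.

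Averaged over both lines, males had lower levels than females, while within DGRP_892 the mean of CG16826 was higher in males. CG16826 averaged 4.42 ± 16.7 CPM in DGRP_892 males and 2.56 ± 9.19 in DGRP_892 females, while the Canton-S B males had 21.001 ± 41.7 CPM and the females 186.2 ± 226.9 (SD, n = 36 each). In edgeR's test on the 48 group means, Ag5r (log2 fold change of males over females -1.56 ± 0.26, SE, adjusted p = 1.12e-07) and CG33109 (-2.50 ± 0.73, adjusted p = 0.00167) passed, 2 of 6 genes beside 65.8% of all genes in either direction and 29.4% lower in males. The call of CG33109 was lost without replicate 1 (adjusted p = 0.0539) and without replicate 2 (adjusted p = 0.212). Without replicate 2 the Canton-S B males of CT06 and CT14 held no count of CG33109, so that contrast was void. limma-trend gave 6 of 6, from -1.19 for CG34212 and Ag5r to -2.23 for CG45080, beside 30% of all genes lower in males, and the additive edgeR fit also gave 6 of 6, beside 29.5%. With 24-h cosine curves in place of the 48 means, 2 genes passed within the deeper libraries, Ag5r and CG45080, beside 20.6% of all genes lower in males. Within the shallower ones 6 passed in that fit, beside 29.7%. Of all genes called for sex, 44.7% were lower in males, and 13.6% with ERCC spike-in scaling, under which the same 2 of the 6 genes passed and all 6 kept a negative fold change.

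The sex difference was seen in Canton-S B. By limma-trend, males over females in DGRP_892 came to between -0.31 for CG45080 and 0.38 for CG16826, with adjusted p of at least 0.635 and none of 6 past 0.05, beside 26% of all genes called lower in males. None of 6 passed in the additive edgeR fit either, beside 25.5%. In Canton-S B the same contrast came to between -2.33 for Ag5r and -4.38 for CG16826, with adjusted p of at most 1.27e-07, so that 6 of 6 passed beside 24.9% of all genes. Pairs of 1 time and collection gave the same picture, with CG33109 lower in the male library in 15 of 36 DGRP_892 pairs and 31 of 36 Canton-S B pairs, and Ag5r in 13 and 27. In DGRP_892 the male library was the higher one in 21 pairs for CG16826, CG34212 and CG33109, in 23 for Ag5r, in 19 for whe and in 14 for CG45080.

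By limma-trend on all libraries, the line difference was larger in females. DGRP_892 over Canton-S B came in females to between -3.07 for Ag5r and -6.04 for CG16826, all 6 past 0.05 beside 29.9% of all genes lower in DGRP_892. In males it came to between -0.40 for CG33109 and -1.28 for CG16826, and only CG34212 (adjusted p = 0.0203) and Ag5r (adjusted p = 0.0244) passed beside 28% of all genes, while the additive edgeR fit put all 6 past 0.05 in males beside 27.9%. The difference between these effects was tested as the line by sex interaction. edgeR on the 48 means called Ag5r (log2 difference, males minus females, 3.02 ± 0.52, SE, adjusted p = 4.57e-06), CG33109 (4.65 ± 1.12, adjusted p = 0.00143) and CG34212 (3.68 ± 1.26, adjusted p = 0.0385), 3 of 6 beside 12.7% of all genes. With a replicate left out, the call of CG34212 was lost each time (adjusted p from 0.145 to 0.478) and that of CG33109 without replicate 1 (0.116) and without replicate 2 (0.457) in the same edgeR test. Groups without counts made these contrasts void for CG34212 without replicate 1 or 3 and for CG33109 without replicate 2. limma-trend called 6 of 6 beside 13.2%, with differences from 2.27 for Ag5r to 4.76 for CG16826, and the additive edgeR fit called 6 of 6 beside 12.7%. edgeR with 24-h cosine curves in place of the 48 means called 4 of 6 within the shallower libraries, beside 9.11% of all genes. Within the deeper ones it called 0 of 6, beside 0.606%. There 1 of the 6 had an unadjusted p under 0.05, beside 780 of the 10894 genes. For whe this fit gave -0.16 ± 1.71 (SE) in the deeper libraries. The contrast of the 48 means, void for whe, gave 5.32 ± 5.39 over all libraries. Neither was called, and because the fits differ no effect of depth can be read from the 2 values.

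**Figure D3:**
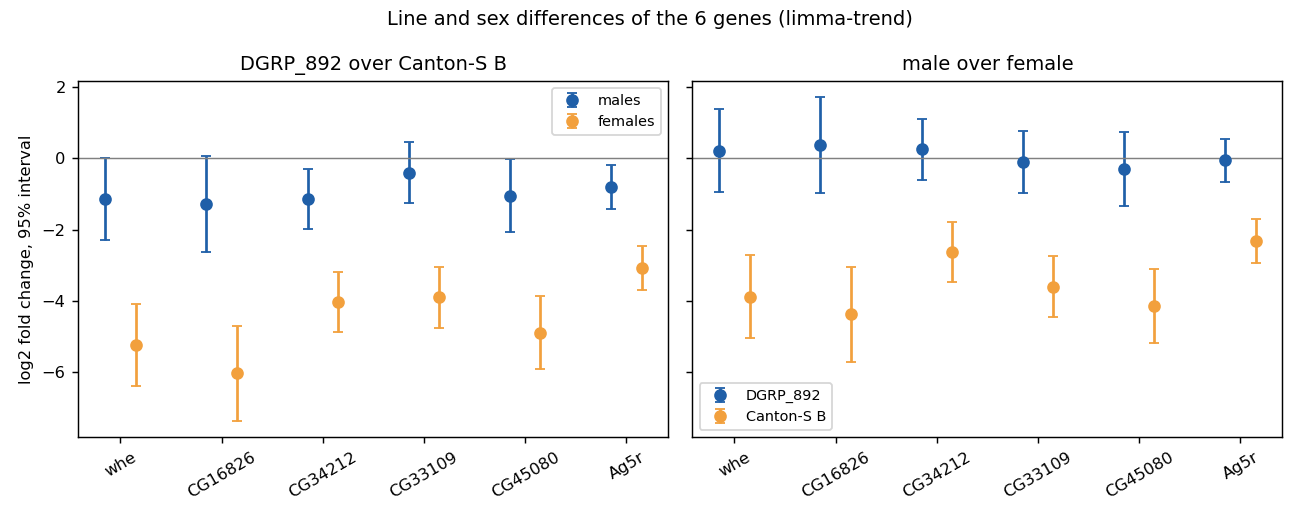
Log2 fold changes with 95% intervals from limma-trend, DGRP_892 over Canton-S B within each sex (left) and males over females within each line (right). The line difference in females lies between -3.07 and -6.04 and that in males between -0.40 and -1.28. The sex difference in DGRP_892 lies between -0.31 and 0.38 in this fit.

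In Canton-S B the values by time are given for each sex, and a difference between the sexes in their time pattern was not tested. In Canton-S B males, CG16826 averaged 56.9 ± 66.05 CPM late at night (CT20 to CT24) and 4.85 ± 13.9 CPM early at night (CT14 to CT18, SD, n = 9 each), beside 11.1 ± 22.7 by day (n = 18). The males' group mean was highest at CT22 for all 6 genes, and 5 of 9 late-night, 1 of 9 early-night and 4 of 18 day libraries lay above the gap. In Canton-S B females, CG16826 averaged 270.7 ± 298.7 CPM late at night and 257.2 ± 265.5 CPM early at night, and whe 75.6 ± 106.3 CPM late and 81.8 ± 100.2 CPM early (SD, n = 9 each). Day levels in these females were 108.4 ± 133.9 CPM of CG16826 and 36.7 ± 57.2 CPM of whe (n = 18). The late-night mean of these females was close to their early-night mean for both genes, and 8 of 9 late-night, 7 of 9 early-night and 9 of 18 day libraries of females lay above the gap.

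Single times and libraries went against the averages of their part of the day. All 3 Canton-S B female libraries of CT08 were low, with 0.145, 8.85 and 0.584 CPM of CG16826 in collections 1, 2 and 3, and the CT08 mean of females was their lowest for every gene. At CT02, shortly after subjective dawn, all 3 were high, with 59.5, 404.6 and 321.8 CPM. At CT24, within the night, they had 3.89, 0.131 and 231.6 CPM. The males of CT02 had 0.149, 76.2 and 60.7 CPM in the 3 collections.

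DGRP_892 did not enter the choice by time, and its time pattern was tested on the CT scale shared by both lines. DGRP_892 is a long-period stock, while the fitted curve had a period of 24 h. After 3 days in the dark, CT20 to CT24 may therefore not be its own late night. The tests cannot decide about its own late night or about a rhythm of its own period. CG16826 averaged 10.5 ± 25.2 CPM late and 1.36 ± 4.85 CPM early at night (SD, n = 18 each), and whe 3.13 ± 7.28 and 1.10 ± 4.28. For whe and CG45080 edgeR's contrast of late over early night on the 48 means was void, since each had an early-night DGRP_892 group without counts. None of the other 4 genes passed, beside 0.00918% of all genes (1 gene). None of these 4 had an unadjusted p under 0.05 in that test, beside 2751 of the 10894 genes. The log2 differences of the 4 were between 0.45 for Ag5r and 2.24 for CG16826, with 95% intervals that included 0, as in -2.47 to 6.94 for CG16826. limma-trend called none, beside 0.00918% of all genes. A further edgeR fit, added after seeing the data, gave each line and sex a mean for day, early night and late night. It called none, beside 0.422% of all genes. At an unadjusted p under 0.05 it had 3 of the 6 genes, and the share of all genes at that level is not given here. DESeq2 on the 48 groups called whe alone (adjusted p = 0.0340), beside 0.312%. That contrast includes the same early-night group without counts, so the call does not settle the question for whe. A 24-h rhythm in DGRP_892 was not called for any of the 6 in edgeR's test, beside 0.477% of all genes. whe came nearest, with an amplitude of 2.31 from mean to peak on the log2 scale, a fitted peak at CT21.8 and an adjusted p of 0.107. In that test 3 of 6 had an unadjusted p under 0.05, beside 1252 of the 10894 genes. limma-trend called none, beside 0.0367% of all genes, and had none of the 6 at an unadjusted p under 0.05. These values rest on few libraries, since at CT22 DGRP_892 males had 27.3, 96.6 and 0.286 CPM of CG16826 and at CT24 females had 51.6, 9.30 and 0.0627 CPM.

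**Figure D4:**
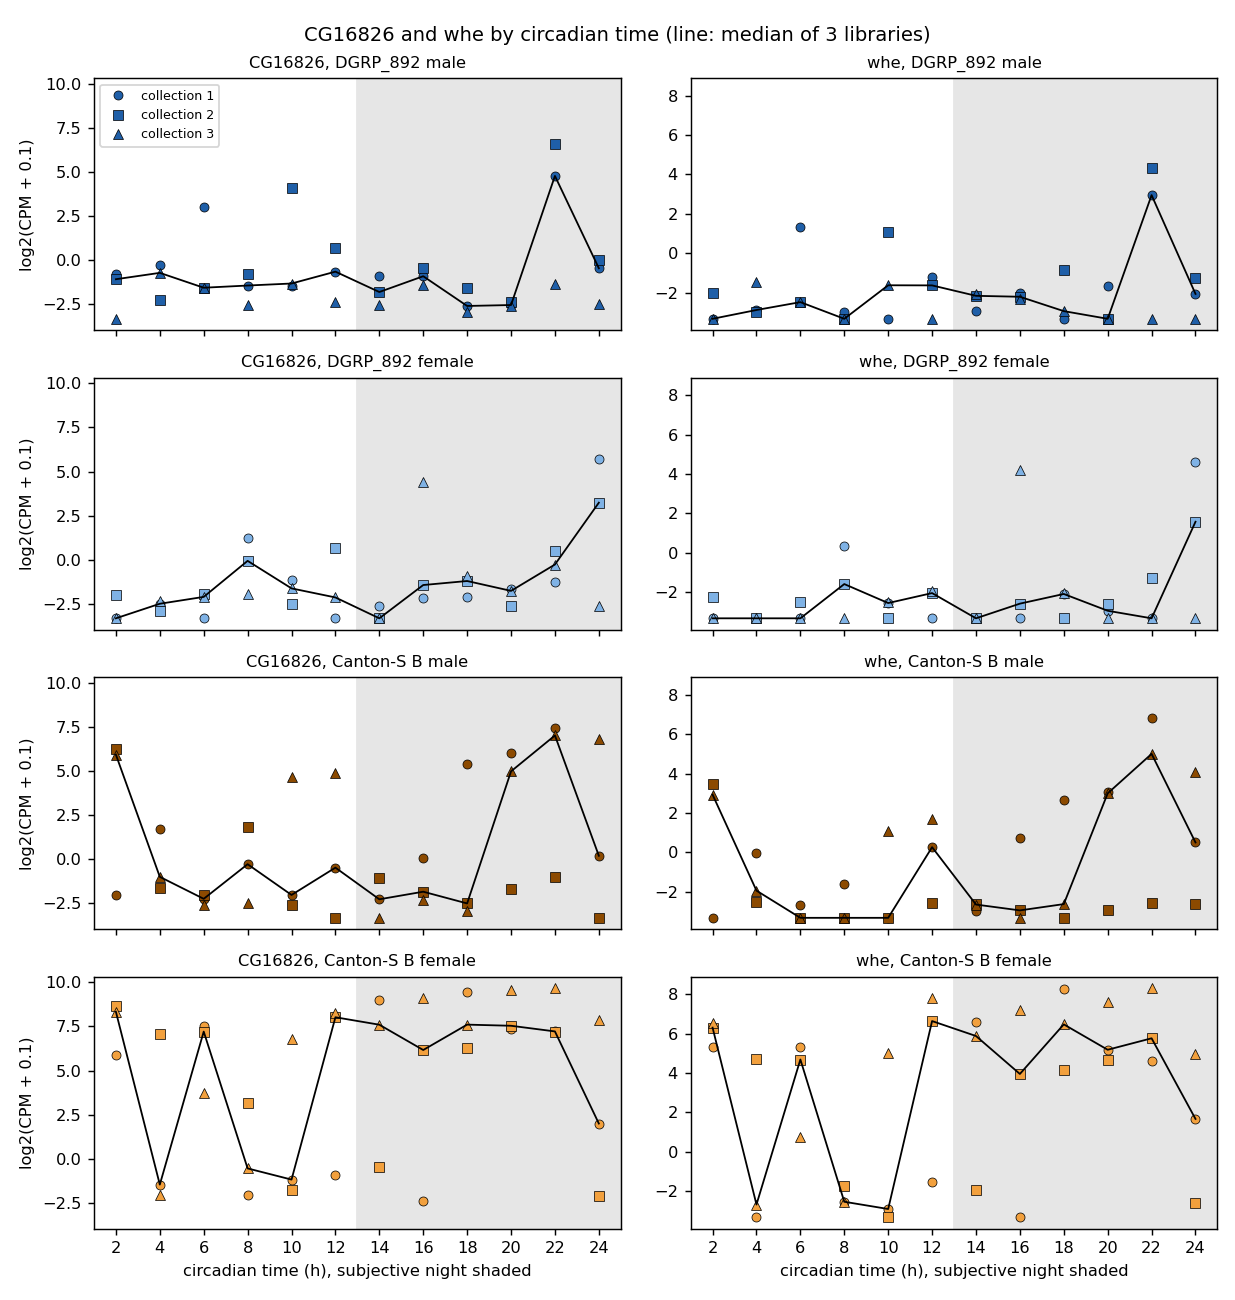
CG16826 (left) and whe (right) as log2(CPM + 0.1) by circadian time, with 1 symbol per collection and a line through the median of 3 libraries. In Canton-S B females high libraries occur at all times except CT08, and in DGRP_892 only single libraries rise above the floor, such as 96.6 and 27.3 CPM of CG16826 in males at CT22.

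Libraries of all 3 collections carried the genes. Above the gap lay 12 of 48 libraries of collection 1, 10 of collection 2 and 16 of collection 3. In Canton-S B males the counts were 3, 1 and 6 of 12, and in Canton-S B females 7, 8 and 9 of 12. With the collection number added to the 48 group means, edgeR's joint test of the 3 collections called CG33109 (adjusted p = 0.0466), 1 of 6 beside 16.2% of all genes. Of those calls over all genes, 50.9% were lower in collection 2 than in the mean of the others, and 28% with ERCC scaling. The log2 level of CG33109 in collection 2 lay 0.75 ± 0.40 (SE) below the mean of the others, and the call was lost without replicate 1 (adjusted p = 0.0504), without replicate 3 (0.911) and in limma-trend, DESeq2 and the additive edgeR fit. By depth, 13 of 48 deeper and 25 of 96 shallower libraries lay above the gap.

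Correlations between pairs of the 6 genes are given separately for the libraries above and below the gap, and not over all 144 libraries. The gap was placed on the mean of these same genes, which were chosen for their spread, so the correlations are a description with no test. Among the 38 libraries above the gap, Pearson's r of log2 CPM (prior count 2) ran from 0.832 to 0.962 over the 15 pairs of genes and Spearman's rho from 0.833 to 0.980, with a median rho of 0.914. Without the 2 libraries farthest from the median of the gene on the x axis, r ran from 0.810 to 0.967. Among the 10 Canton-S B males above the gap the median rho was 0.648 and the lowest 0.491, with r of -0.0072 for whe and CG33109 without the 2 libraries farthest from the median, and among the 24 Canton-S B females it was 0.922. The median rho was 0.934 in the 13 deeper libraries and 0.889 in the 25 shallower ones. Below the gap most levels were near 0, but CG16826 reached 16.7 CPM in the DGRP_892 male library of CT10 in collection 2. Among the libraries below the gap the median rho was 0.276 and rho ran from 0.0681 to 0.626. Libraries share collections, extraction groups of 12 and depth classes, so they are not fully independent points.

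**Figure D5:**
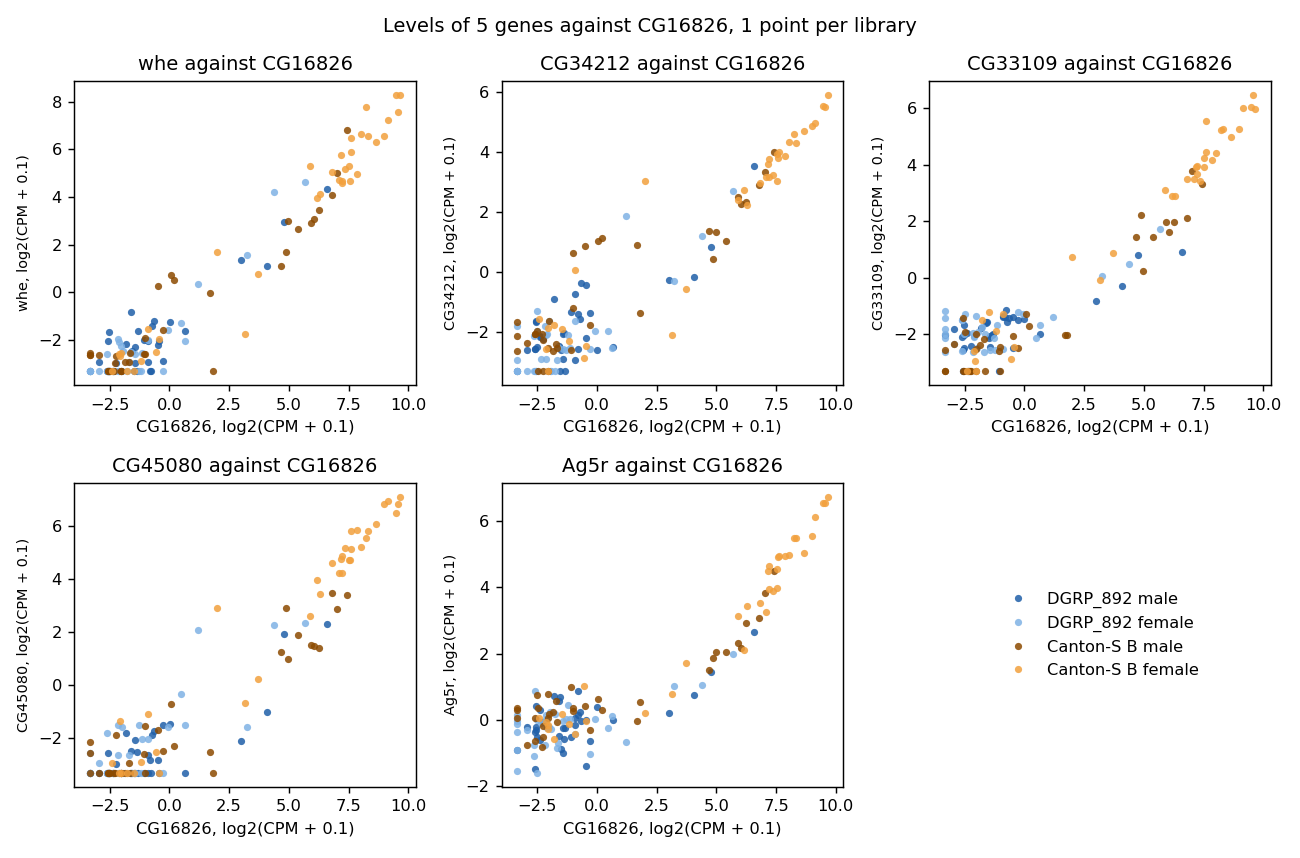
Level of the other 5 genes against CG16826, each as log2(CPM + 0.1), with 1 point per library coloured by line and sex. Among the high libraries the levels rise with that of CG16826 in each panel, with a median rho of 0.914 over all pairs of genes above the gap. Most low libraries form a cloud near the floor. The ratio to CG16826 differs between groups, as for CG45080 with 7.03% in Canton-S B males and 17.5% in Canton-S B females.

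The genes did not keep fixed proportions in every group. Over summed CPM, CG45080 came to 6.63% of CG16826 in DGRP_892 males and 17.98% in DGRP_892 females, and to 7.03% in Canton-S B males and 17.5% in Canton-S B females. CG33109 came to 6.29% and 11.8% in DGRP_892 males and females, and to 6.79% and 10.1% in Canton-S B males and females. whe came to 22.4% and 52.7% in DGRP_892 males and females, and to 27.9% and 30.98% in Canton-S B males and females. CG34212 came to 12.6% and 16.96% in DGRP_892 males and females, and to 9.05% and 6.85% in Canton-S B males and females. Ag5r came to 24.1% and 36.1% in DGRP_892 males and females, and to 13.8% and 12.4% in Canton-S B males and females. These shares rest on few high libraries in DGRP_892 and were not tested. CG16826 had the highest CPM of the 6 in 37 of the 38 libraries above the gap. The exception was the Canton-S B female library of CT24 in collection 1, with 3.89 CPM of CG16826 beside 8.05 of CG34212 and 7.31 of CG45080.

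The genes with the most similar pattern were looked for among all genes tested. Likeness was measured as the mean of 2 Spearman rho of log2 CPM, 1 over the 72 DGRP_892 libraries and 1 over the 72 Canton-S B libraries, and the 5 most alike of all genes tested were taken for each of the 6. Each rho takes libraries above and below the gap and both sexes together, and it is given as a description. These lists consisted of whe, CG16826, CG34212, CG33109 and CG45080 and of CG43679, LysP, lcs and CG8708. Ag5r entered none of the lists of the other 5 genes, and its own highest likeness was 0.642, to CG33109. CG43679 entered 5 of the 6 lists, with a likeness to CG16826 of 0.782 (rho 0.630 in DGRP_892 and 0.935 in Canton-S B). LysP, which encodes a lysozyme known from the adult salivary gland, also entered 5, with a likeness to CG16826 of 0.782 (0.644 and 0.919). It averaged 0.379 CPM in DGRP_892 males, 0.255 in DGRP_892 females, 0.124 in Canton-S B males and 2.80 in Canton-S B females. lcs lies 5023 bases from whe on X and averaged 0.868 CPM in DGRP_892 males, 0.60 in DGRP_892 females, 3.66 in Canton-S B males and 28.3 in Canton-S B females. Its likeness to whe was 0.634, below that of CG16826 on another chromosome (0.809). CG8708 entered the list of Ag5r alone, with a likeness of 0.612.

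The 6 genes were compared with 17 gene lists by the likeness of the summed CPM of each list. Besides markers of tissues and cell types these included the CAP family, induced immune peptides and the core clock. The list of 12 salivary gland genes, which contains LysP, had a likeness to the 6 genes between -0.03 and 0.10, and its sum ran from 44.6 to 81.2 CPM in DGRP_892 males, 38.1 to 75.8 in DGRP_892 females, 48.3 to 84.6 in Canton-S B males and 48.3 to 92.7 in Canton-S B females. The 31 midgut digestive enzyme genes had a likeness between -0.25 and -0.10. The sum of 11 flight muscle genes was the only one to reach 0.3, with CG45080 (0.321), and it came to between 0.260 and 0.295 for the other 5 genes. It ran from 1578 to 2589 CPM in DGRP_892 males, 1726 to 3634 in DGRP_892 females, 1895 to 3432 in Canton-S B males and 2647 to 4515 in Canton-S B females, with all 11 genes measured and none at 0 throughout. The sum of 13 photoreceptor genes, named after its values were seen, ran the other way, with a likeness from -0.257 for CG34212 to -0.382 for CG45080 and a rho within Canton-S B from -0.560 for CG34212 to -0.634 for whe. Within Canton-S B other sums also moved with the 6 genes. Over the 6 genes rho ran from 0.496 to 0.582 for flight muscle and from 0.307 to 0.410 for haemocytes. It ran from -0.341 to -0.488 for the core clock, from -0.364 to -0.486 for nephrocytes and from -0.352 to -0.476 for induced immune peptides. For midgut enzymes it ran from -0.333 to -0.463, for testis and accessory gland from -0.332 to -0.454 and for ovary and eggshell from -0.263 to -0.362. All these rho took both sexes together, and the sums differed by sex too. Median sums of Canton-S B males and females were 2467 and 3540 CPM for flight muscle and 74807 and 59082 CPM for photoreceptors. Values within 1 sex were not computed, so a shared sex difference was not separated. The photoreceptor sum ran from 73498 to 104749 CPM in DGRP_892 males, 60109 to 87683 in DGRP_892 females, 54563 to 87669 in Canton-S B males and 48344 to 78614 in Canton-S B females. The part of these tissues in the levels of the 6 genes was not tested.

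The CAP family was examined beside Ag5r. Of 28 distinct CAP genes listed, Ag5r and 9 others were tested, and of those 9 the edgeR test on the 48 means called 4 higher and 2 lower in DGRP_892, with a median log2 fold change of 0.15 beside -0.0078 over all genes. The share called is near the 67.1% of all genes called for line in either direction. CG9400, the only one of them past the threshold with 5 CPM or more, averaged 24.8 CPM in DGRP_892 males, 12.9 in DGRP_892 females, 30.7 in Canton-S B males and 23.5 in Canton-S B females, a log2 fold change of -0.46 ± 0.04 (SE). CG34002, named after its values were seen, was at lower levels, with means of 0.214 CPM in DGRP_892 males, 0.1105 in DGRP_892 females, 0.853 in Canton-S B males and 0.906 in Canton-S B females, and a log2 fold change of -2.44 ± 0.16 (SE, edgeR adjusted p = 1.2e-27). The neighbour Ag5r2 had no count in 49 of 144 libraries and averaged 0.16 CPM or less in every group of line and sex. The summed level of the other CAP genes had a likeness to Ag5r of -0.07.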

How the data were processed

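Raw read counts, not normalized by the authors, were deposited for 17381 genes and 92 ERCC spike-in transcripts in 144 head libraries. Mapping used FlyBase release 6 with the ERCC sequences added, per the labels, and STAR 2.5.3a, featureCounts 1.5.2 and FastQC 0.11.5 appear in the submitters' processing notes. The authors also deposited TMM-normalized values after a batch correction, which were read as a score since 3.31% of them are negative. They served only as an alternative, as log2(value + 20) with values below 0 set to 0. Genes were named from the Ensembl annotation of the FlyBase release 6 assembly, which named 17239 of 17381. ERCC transcripts (0.387% of counts) did not enter library sizes.

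filterByExpr with the 48 groups, at least 10 counts and a total of 15 kept 10894 genes. The main tests ran in R 4.3.3 with edgeR 4.0.16, TMM scaling, robust glmQLFit and glmQLFTest over all 144 libraries, Benjamini-Hochberg adjustment over all genes tested and a threshold of 0.05. Line, sex and their interaction were contrasts of the 48 group means, and the rhythm was a 24-h cosine and sine for each line and sex, averaged over the sexes of DGRP_892. For genes with groups that hold no count the contrast of log group means is undetermined, so limma-trend (limma 3.58.1, log2 CPM, prior count 2) and an additive edgeR fit are printed beside it. Intervals are 95% intervals. DESeq2 1.42.0, ERCC scaling, a library number block, depth classes, no filter and leaving out each collection were further alternatives. The tests were tried on simulated data with 200 changed genes. Correlations are given without a p because the gap that divides their libraries rests on the same 6 genes. Figures were drawn with matplotlib 3.10.9.

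The 6 genes and all gene lists were chosen with earlier results of these data known, so no choice made here is independent of them. The named genes are the 6 genes, the 5 most alike genes of each, CAP genes past the line effect with at least 5 CPM, and marker lists whose likeness to any of the 6 reached 0.3. The salivary gland, midgut, photoreceptor and other lists below 0.3 and CG34002 fall outside that rule and were named after their values were seen. The labels say that the collection was run 3 times, so the replicate number pairs libraries. Deviations from the group means correlated at a median of 0.0502 between libraries of the same number and at -0.0266 between others. Of the same-numbered pairs 37.7% exceeded 0.1, beside 20.5% of the others. No sequences were printed, because no sequence tables were used here.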

Additional observations from a re-analysis of the deposited data

Results flagged for a closer look

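The line effect differed between the sexes for 3 of the 6 genes in edgeR's quasi-likelihood test of the line by sex interaction on the 48 group means. The line effect in males minus that in females was 3.68 on the log2 scale for CG34212, 4.65 for CG33109 and 3.02 for Ag5r, each with the larger deficit of DGRP_892 in females. With a replicate left out, Ag5r held each time, CG33109 only without replicate 3, and CG34212 in none. For CG34212 without replicate 1 or 3 and CG33109 without replicate 2, groups without counts left the contrast undetermined. Groups of 3 libraries were too small to test for single outlying libraries.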

How the results depend on the processing

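The number of the 6 genes past an adjusted p of 0.05 depended on the fit. For the line effect (2 of 6) it was 4 with ERCC scaling and 6 with limma-trend, DESeq2, the additive fit, the authors' batch-corrected values, the deeper libraries only or the shallower libraries only. For the sex effect (2 of 6) it was 5 with the batch-corrected values and 6 with limma-trend, DESeq2, the additive fit or the shallower libraries only. For the line by sex interaction (3 of 6) it was 0 in the deeper libraries and 6 with limma-trend, DESeq2, the additive fit or the batch-corrected values. The 6 with DESeq2 include whe and CG45080, whose groups without counts enter its contrasts. Over all genes the line effect called 7310, 7363 with limma-trend, 5351 in the deeper and 6627 in the shallower libraries. The sex effect called 7163, 7364 with limma-trend and 6828 in the shallower libraries. The interaction called 1380, and 1442 with limma-trend. Leaving out each replicate in turn gave 1 to 2 genes for the line effect, 1 to 2 for sex and 1 to 2 for the interaction, with CG34212 lost from the line effect without replicate 2 and without replicate 3. Leaving out replicate 1 or 2 lost CG33109 from the sex effect. Of these, CG34212 without replicate 3 and CG33109 without replicate 2 were void contrasts, with groups that then held no count. With ERCC scaling the DGRP_892 rhythm called 1 gene, whe, and with DESeq2 the night difference called 1, also whe, against 0 otherwise. The DESeq2 contrast includes an early-night group without counts of whe. The collection call of CG33109 gave 0 genes without a filter, with ERCC scaling, the library number block, either depth class, limma-trend, DESeq2, the additive fit or the batch-corrected values, and 0 without replicate 1 or replicate 3. In the deeper libraries its sign turned, to 0.0215. That fit differed both in its libraries and in its model, and the cause was not tested. The replicate block gave 2 genes for line, 2 for sex, 3 for the interaction and 0 for rhythm and night, the same calls as without it. It does not apply to the collection number, whose contrast also gives no value without replicate 2. Above the gap the median rho of the 15 pairs was 0.914, also with a prior count of 0.5, 0.853 on deviations from runs of library numbers and 0.861 to 0.939 with a replicate left out. The counts over all genes moved by over 1.5 times as follows. The line effect gave 7310 genes, and 3651 with ERCC scaling. The sex effect gave 7163, and 4383 in the deeper libraries. The interaction gave 1380, 66 in the deeper libraries, between 66 and 145 with ERCC scaling, and 670 to 1162 with a replicate left out. The DGRP_892 rhythm gave 52, 275 without a filter, 32 with DESeq2, 16 in the deeper and 10 in the shallower libraries, 14 with the batch-corrected values, 4 with limma-trend and 8 to 28 with a replicate left out. The night difference gave 1, 205 in the deeper libraries, 46 in the additive fit, 34 with DESeq2, 2 with the replicate block or without a filter, and 0 with ERCC scaling, the library number block or the shallower libraries. The collection gave 1768, 200 with ERCC scaling, 145 in the deeper and 729 in the shallower libraries, 1141 without replicate 1 and 1135 without replicate 3. ERCC scaling moved the median log2 difference of all genes by 0.20 for sex and 0.32 for the night difference. Below about 0.2 CPM a level rests on 3 counts or fewer in a library of median depth.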
